A study of Mus musculus with 27 samples.

Results

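Of the 17595 Runx2 ChIP-seq peaks deposited for control mK4 cells, 6688 (38.0%, 95% Wilson interval 37.3 to 38.7) shared no base with any of the 15608 Runx2 peaks deposited for Runx1KO cells, and these are called lost peaks here. The other 10907 overlapped a Runx1KO peak by at least 1 bp and are called retained. The rule reads only whether a peak was called in each list, so a lost peak is one without a call in Runx1KO cells, which need not be one without Runx2. The interval here and those below cover counting over peaks alone, because each list was called once on pooled replicate reads and gives no value per replicate. No test across replicates could be made on peaks, and peaks are not replicates of a condition.

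The mK4 line is a mouse cell line derived from kidney metanephric mesenchyme. The control cells are the parental line, labelled wild type. Runx1KO cells are sub-lines of it from which exon 3 of Runx1, with the start codon used in these cells, was deleted with a pair of CRISPR-Cas9 guides. ZebDKO cells carry deletions in both Zeb1 and Zeb2, made from the same line. RNA-seq had 3 libraries for each of the 3 genotypes, and Runx2 ChIP-seq and ATAC-seq had 3 for control and 3 for Runx1KO cells, with Runx1 ChIP-seq used here from control cells. The number of clones behind each genotype is not given in the sources used here, and effects of clone and genotype cannot be told apart. Per the study's methods, the 3 libraries of a genotype came from cells cultured in triplicate, so p-values for RNA measure the spread between cultures of the same cells. In RNA-seq, control libraries held 12541 to 12574 genes at 1 TPM (a level scaled for gene length and library sum) or more and Runx1KO libraries 12674 to 12695. Of 10 metanephric mesenchyme markers, 7 reached 1 TPM in all control libraries and 5 in all Runx1KO libraries, while their summed level was 725.6 to 733.8 TPM in control and 753.6 to 825.2 TPM in Runx1KO libraries. Wt1 and Hoxd11 were below 1 TPM in both genotypes, and Osr1, Gdnf and Itga8 in addition in Runx1KO cells. The summed level of 4 epithelial markers was 2.1 to 3.7 TPM in control and 2334 to 2425 TPM in Runx1KO libraries, with Krt8 carrying nearly all of it and Cdh1 and Epcam below 1 TPM in both.

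Runx proteins bind DNA through a conserved Runt domain together with the shared partner Cbfb, and all family members read the same short sequence, TGTGGT or its complement ACCACA. Runx1 is best known as a regulator of blood formation and Runx2 as a regulator of bone formation, and a cell that makes both can carry either protein at the same site. ChIP-seq counts DNA fragments held by an antibody to the protein, while ATAC-seq counts fragments cut from open chromatin, so one reports binding and the other accessibility.

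The lost peaks held sequences of 2 very different kinds. The first kind occurs once in the genome. Shown next, from mm9 and on the plus strand, are 200 bases around the summit of 6 lost peaks. They are 5 of the 6 strongest lost peaks that overlapped both a Runx1 peak of control cells and a region that lost accessibility in Runx1KO cells, with 1 left out whose window held no match, and the strongest lost peak assigned to Ubash3b. Strongest lost peaks, here and below, were picked on placed chromosomes other than 18. Capitals mark TGTGGT or ACCACA.

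Akap14 chrX:34719016-34719215: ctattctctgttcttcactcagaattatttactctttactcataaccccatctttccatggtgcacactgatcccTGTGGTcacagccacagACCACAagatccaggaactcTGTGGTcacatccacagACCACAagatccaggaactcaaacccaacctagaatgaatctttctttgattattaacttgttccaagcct
Cntn3 chr6:102070111-102070310: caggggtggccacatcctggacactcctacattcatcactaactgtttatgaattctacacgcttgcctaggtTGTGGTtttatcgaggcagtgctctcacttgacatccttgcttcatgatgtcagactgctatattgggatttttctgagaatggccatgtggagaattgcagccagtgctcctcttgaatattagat
Gm815 chr19:27008843-27009042: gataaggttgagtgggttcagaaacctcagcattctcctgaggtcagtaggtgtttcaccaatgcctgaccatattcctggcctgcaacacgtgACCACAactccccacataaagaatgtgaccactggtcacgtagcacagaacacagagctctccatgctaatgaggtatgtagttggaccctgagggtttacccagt
Oxr1 chr15:41678095-41678294: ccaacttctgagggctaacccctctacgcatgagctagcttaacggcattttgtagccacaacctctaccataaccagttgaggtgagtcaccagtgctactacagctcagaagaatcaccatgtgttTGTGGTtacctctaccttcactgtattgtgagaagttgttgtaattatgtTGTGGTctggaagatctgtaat
Runx1 chr16:92696865-92697064: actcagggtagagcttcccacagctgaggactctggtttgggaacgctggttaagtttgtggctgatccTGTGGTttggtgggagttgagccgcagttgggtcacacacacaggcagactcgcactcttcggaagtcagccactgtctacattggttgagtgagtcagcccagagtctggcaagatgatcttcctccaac
Ubash3b chr9:40907286-40907485: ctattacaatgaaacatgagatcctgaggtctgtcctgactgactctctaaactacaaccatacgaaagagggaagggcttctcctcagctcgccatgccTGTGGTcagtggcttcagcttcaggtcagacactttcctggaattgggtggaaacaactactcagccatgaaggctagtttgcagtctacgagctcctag

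The second kind occurs over and over in the genome. Shown next, with no capitals since none holds TGTGGT or ACCACA, are the whole lost peaks that were strongest in the domains of Gulp1, Ptchd4 and Pik3r1, 3 genes with many lost peaks described further on. The median 30-base word of these peaks occurred 17035, 15589 and 17276 times in mm9.

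Gulp1 chr1:44329023-44329124: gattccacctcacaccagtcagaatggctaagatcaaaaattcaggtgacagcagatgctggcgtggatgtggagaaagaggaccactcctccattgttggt
Ptchd4 chr17:41633848-41633968: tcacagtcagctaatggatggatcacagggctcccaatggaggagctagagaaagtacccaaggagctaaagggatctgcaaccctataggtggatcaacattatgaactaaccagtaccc
Pik3r1 chr13:103039374-103039478: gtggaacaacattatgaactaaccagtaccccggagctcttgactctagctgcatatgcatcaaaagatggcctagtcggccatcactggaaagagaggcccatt

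Copy number was counted as the median number of times that the 30-base words of the middle 200 bases of a peak, on either strand, occur in mm9. Lost peaks held 3544 single-copy peaks (53.0% of 6688) with a median of 1, 2254 many-copy peaks (33.7%) with 100 or more, and 786 peaks (11.8%) in between. The other 104 lay on unplaced sequence, for which no sequence was read. Among retained peaks with sequence, 94 of 10776 (0.872%) were many-copy and 10218 (94.8%) were single-copy. The share of control Runx2 peaks that were lost rose with each step of copy number. It was 25.8% of 13762 single-copy peaks, 57.6% of 681 peaks above 1 and below 10 copies, 69.2% of 569 peaks from 10 to below 100, 91.9% of 669 from 100 to below 1000, and 97.6% of 1679 with 1000 copies or more.

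The same sequences filled the 3 ChIP-seq lists very unevenly. Many-copy peaks made up 13.5% of the control Runx2 list (2348 of 17360 with sequence), 1.51% of the Runx1KO Runx2 list (233 of 15393) and 34.7% of the control Runx1 list (3466 of 9977). In the ATAC-seq lists of closing, stable and opening regions they made up 0.217%, 0.366% and 0.339%. When many-copy control peaks that shared words were joined, the largest of the families had 963 peaks, of which 950 were lost, and the 5 largest held 1978 of the 2348 many-copy peaks. Of the 4 next largest families, 224 of 270, 263 of 270, 252 of 259 and 213 of 216 peaks were lost. The 5 words printed here come from these sequences and show the contrast between the lists.

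word 1: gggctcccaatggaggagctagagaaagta
word 2: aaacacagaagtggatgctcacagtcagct
word 3: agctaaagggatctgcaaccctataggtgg
word 4: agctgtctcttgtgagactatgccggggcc
word 5: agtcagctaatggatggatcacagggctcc

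Word 1 occurred 18569 times in mm9 and lay in 297 control Runx2 peaks, of which 294 were lost, in 13 Runx1KO Runx2 peaks and in 496 control Runx1 peaks. Word 2 occurred 31659 times and lay in 258, 9 and 475 peaks of the same lists. The other 3 words occurred 11700 to 23775 times and lay in 203 to 240 control Runx2 peaks, 4 to 11 Runx1KO Runx2 peaks and 343 to 407 control Runx1 peaks. Many-copy sequence was thus abundant in both control lists and scarce in the Runx1KO list. How reads with many possible positions were placed is not given in the sources used here, and its part in this contrast was not tested. Lost many-copy peaks were also weak and narrow, with a median fold of 3.87, a median width of 127 bp and no larger fold than 7.08.

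**Figure D1:**
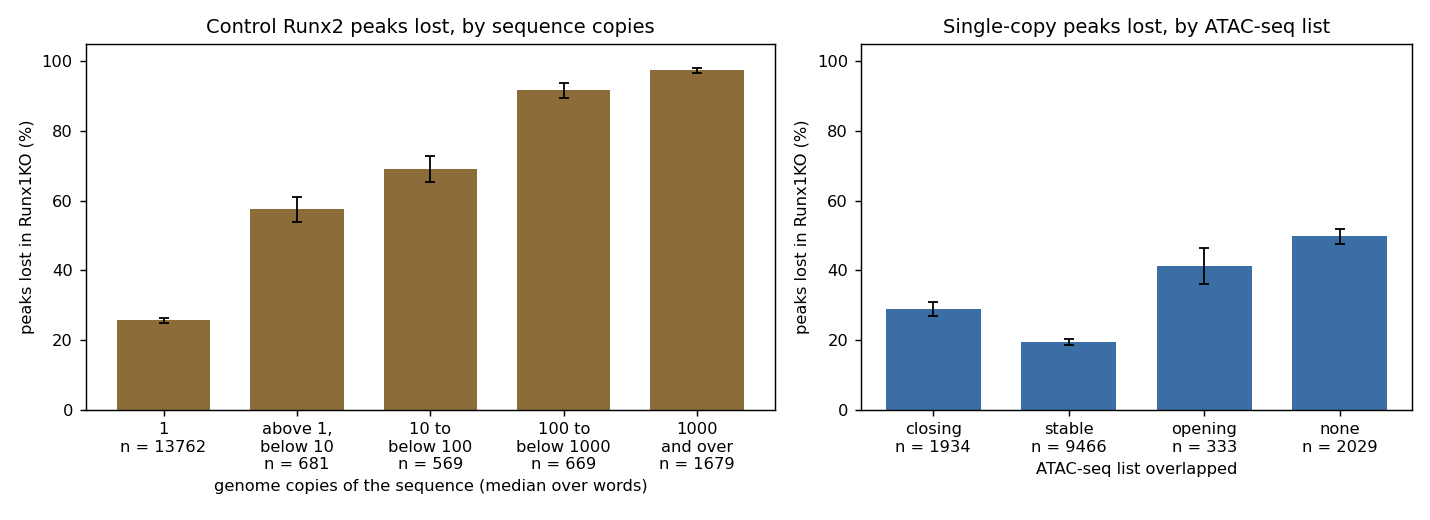
Share of control Runx2 peaks without a Runx1KO call (y axes, percent) by genome copies of the sequence (left, all peaks with sequence) and, for single-copy peaks, by the ATAC-seq list overlapped (right). Bars are shares and error bars 95% Wilson intervals over peaks; the share runs from 25.8% of single-copy peaks to 97.6% at 1000 copies and over, and from 19.4% on stable to 49.8% outside all ATAC-seq regions.

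Accessibility was compared next, using the 3 deposited ATAC-seq lists: 8741 closing regions (the Runx1-dependent list, open in control cells), 37481 stable regions (Runx1-independent) and 9427 opening regions (Runx1KO-induced). Of the lost peaks, 580 (8.67%) lay on a closing region, 1939 (29.0%) on a stable region, 149 (2.23%) on an opening region and 4020 (60.1%) on none. Of the retained peaks, 1402 (12.9%) lay on a closing, 7793 (71.4%) on a stable and 204 (1.87%) on an opening region, and 1508 (13.8%) on none. Lost peaks thus lay outside all lists far more often, by 46.3 percentage points (44.9 to 47.6), and on closing regions less often, by 4.18 points (difference -4.18, -5.10 to -3.25). The many-copy peaks carried much of the first difference, since 2240 of the 2254 lost ones lay outside all lists.

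Among single-copy peaks the order for closing regions turned round. There, 561 of 3544 lost peaks (15.8%) and 1373 of 10218 retained peaks (13.4%) lay on closing regions, a difference of 2.39 points (1.05 to 3.79). Stable regions held 51.8% of lost and 74.7% of retained single-copy peaks, opening regions 3.87% and 1.92%, and 28.5% and 9.97% lay outside all lists. Read the other way, the share lost was 29.0% (561 of 1934) on closing regions, 19.4% (1836 of 9466) on stable regions, 41.1% (137 of 333) on opening regions and 49.8% (1010 of 2029) outside all lists. So most Runx2 peaks on regions that closed were still called in Runx1KO cells, and most lost single-copy peaks lay on stable regions or on none.

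Runx1 peaks overlapped a smaller share of lost than of retained peaks in every ATAC-seq class. A control Runx1 peak overlapped 1091 of 6688 lost peaks (16.3%) and 5100 of 10907 retained peaks (46.8%), a difference of -30.4 points (-31.7 to -29.1). Among single-copy peaks these shares were 12.6% and 46.4%, and among many-copy peaks 21.5% (484 of 2254) and 57.4% (54 of 94). On closing regions a Runx1 peak overlapped 25.3% of lost and 60.2% of retained single-copy peaks, on stable regions 8.99% and 45.6%, on opening regions 13.1% and 43.4%, and outside all lists 11.9% and 33.7%. The share lost on closing regions was therefore 14.7% (142 of 968) with a Runx1 peak and 43.4% (419 of 966) without. On stable regions it was 4.52% (165 of 3648) with and 28.7% (1671 of 5818) without. Where a lost peak did overlap a Runx1 peak, the Runx1 fold over local background was 4.38 at the median (n = 1091), against 4.96 for retained peaks (n = 5100), and on closing regions it was 4.61 against 5.35 for single-copy peaks.

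Lost peaks were the weaker part of the control list. The median fold of Runx2 over local background in control cells was 3.83 for lost peaks (quartiles 3.42 and 4.27) and 4.66 for retained peaks (3.91 and 5.89), and the median width was 142 bp against 299 bp. When all control peaks were put in 4 equal groups by fold, 59.6%, 52.9%, 31.4% and 8.16% of them were lost from the weakest to the strongest group. For single-copy peaks the shares were 47.4%, 36.7%, 19.5% and 5.85%. At matched strength the ATAC-seq classes kept their order, since from the weakest to the strongest group the share lost fell from 51.5% to 11.7% on closing regions, from 41.3% to 2.02% on stable regions, and from 65.4% to 21.6% outside all lists. The same held for Runx1: with a Runx1 peak the share fell from 26.6% to 4.10%, and without one from 50.3% to 11.7%.

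**Figure D2:**
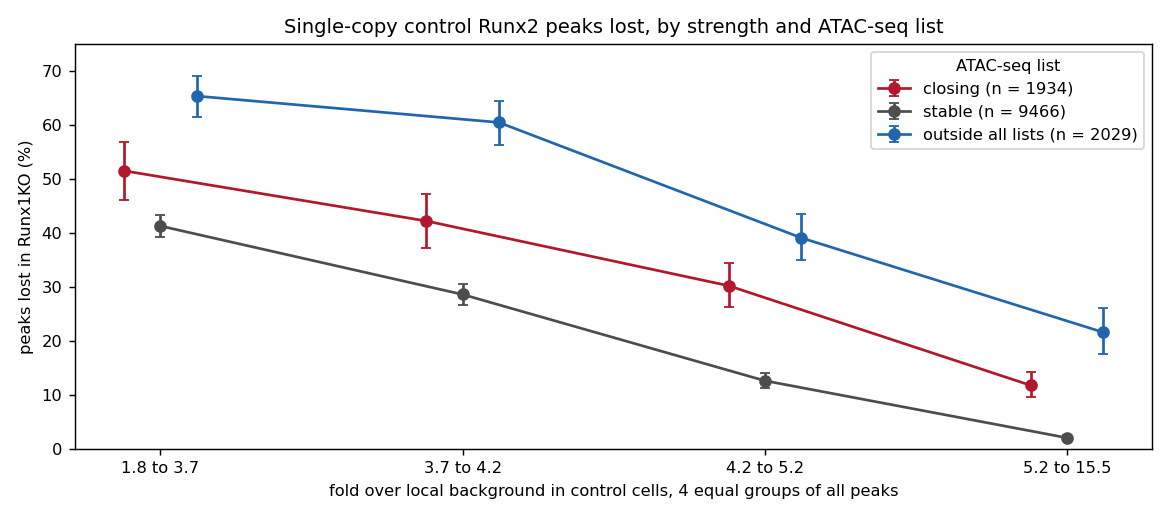
Share of single-copy control Runx2 peaks without a Runx1KO call (y axis, percent) in 4 groups of control fold over local background (x axis, from weakest to strongest), for peaks on closing regions, on stable regions and outside all ATAC-seq lists. Points are shares and bars 95% Wilson intervals over peaks; in the strongest group 11.7% of peaks on closing regions and 2.02% of those on stable regions were lost.

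The height of a peak could be set beside what a call needed. The fold and the p-value of each peak together give the reads stacked at its summit, the pileup, and this could be solved for 100% of the peaks in each list. Lost peaks had a median pileup of 16 reads (17 for single-copy, 15 for many-copy) and retained peaks 23. The genome-wide background was 3.09 reads in the control Runx2 list and 3.92 in the Runx1KO list, a ratio of 1.27 that ranged from 1.21 to 1.34 over 20 chromosomes. With control pileup scaled by 1.27, a Runx1KO call would have needed a median of 68.4% of the scaled pileup at lost peaks and 53.8% at retained peaks. A call would have persisted at a drop to 50% of the scaled pileup for 402 lost peaks (6.01%) and for 4503 retained peaks (41.3%). On closing regions this was so for 110 of 561 lost single-copy peaks (19.6%), and on stable regions for 67 of 1836 (3.65%). For most lost peaks, then, a fall of less than 50% in Runx2 reads would have been enough to lose the call, and the lists cannot separate a small fall from a complete one.

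Retained peaks have a value in both lists, but only where the Runx1KO call was made, so the rule cuts off low ratios. For single-copy retained peaks, the median pileup in Runx1KO over control was 1.21 on stable regions (n = 7630) and 1.13 on closing regions (n = 1373). It was 1.12 on opening regions (n = 196) and 1.20 outside all lists (n = 1019), against the background ratio of 1.27. For many-copy retained peaks it was 1.06 (n = 94). A gap to the nearest Runx1KO Runx2 peak of under 100 bases was found for 230 lost peaks, of 100 to under 500 bases for 355 and of 500 to under 1000 bases for 167. A further 913 lay 1 to 10 kb from one, 2617 lay 10 to 100 kb, and 2402 lay further off, with 4 on sequences that had no Runx1KO peak. The 230 nearest were 3.44% of the lost peaks, so few were near misses of the overlap rule. Just outside the rule, a lost peak near Srsf1 at chr11:87861029-87861182 (fold 3.74) touched a Runx1KO peak with a gap of 0 bases, and just inside it, a retained peak near Gm9905 at chr7:128178269-128178484 (fold 3.80) shared 1 base.

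The Runx word was next counted in the 200 bases around the middle of each peak, as TGTGGT on either strand. It lay in 2040 of 6584 lost peaks (31.0%) and 4408 of 10776 retained peaks (40.9%), and in 941 of 6584 and 1674 of 10776 windows of the same length 2000 bases away from them. Among single-copy peaks the order turned round, with 46.1% of lost and 40.6% of retained peaks (difference 5.47 points, 3.58 to 7.37). This order depended on the window, since over whole peaks, which had a median width of 158 bp when lost and 307 bp when retained, the shares were 43.5% and 47.1% (difference -3.66 points, -5.55 to -1.76). Stable regions, where the word was rarest, held 51.8% of the lost and 74.7% of the retained ones. Within a class, the shares of lost and retained single-copy peaks were 65.4% and 66.5% on closing regions, 29.3% and 31.3% on stable regions, and 65.0% and 73.8% outside all lists. The intervals of the difference were -5.79 to 3.51 points, -4.34 to 0.31 points and -12.8 to -4.84 points, so in this window it was resolved only outside the lists. In 200 bases around the summit it was also resolved on stable regions (-3.56 points, -5.85 to -1.21), and over whole peaks on closing regions (-9.28 points, -13.9 to -4.73) and stable regions (-11.2 points, -13.5 to -8.88) as well. The lost many-copy peaks held the word in 8.16% (184 of 2254), below the 14.2% of their neighbouring windows.

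The position of the word within the peak also differed between classes. The word lay within 30 bases of the summit in 32.8% of lost peaks on closing regions, 34.7% of those outside all lists, 13.1% of those on stable regions and 3.19% of many-copy ones. For retained single-copy peaks the first 3 shares were 35.9%, 41.4% and 15.7%. The 95% Wilson intervals of lost and retained peaks overlapped on closing regions (29.0 to 36.8 and 33.4 to 38.5) and did not outside the lists (31.8 to 37.6 and 38.4 to 44.5) or on stable regions (11.7 to 14.7 and 14.9 to 16.5).

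**Figure D3:**
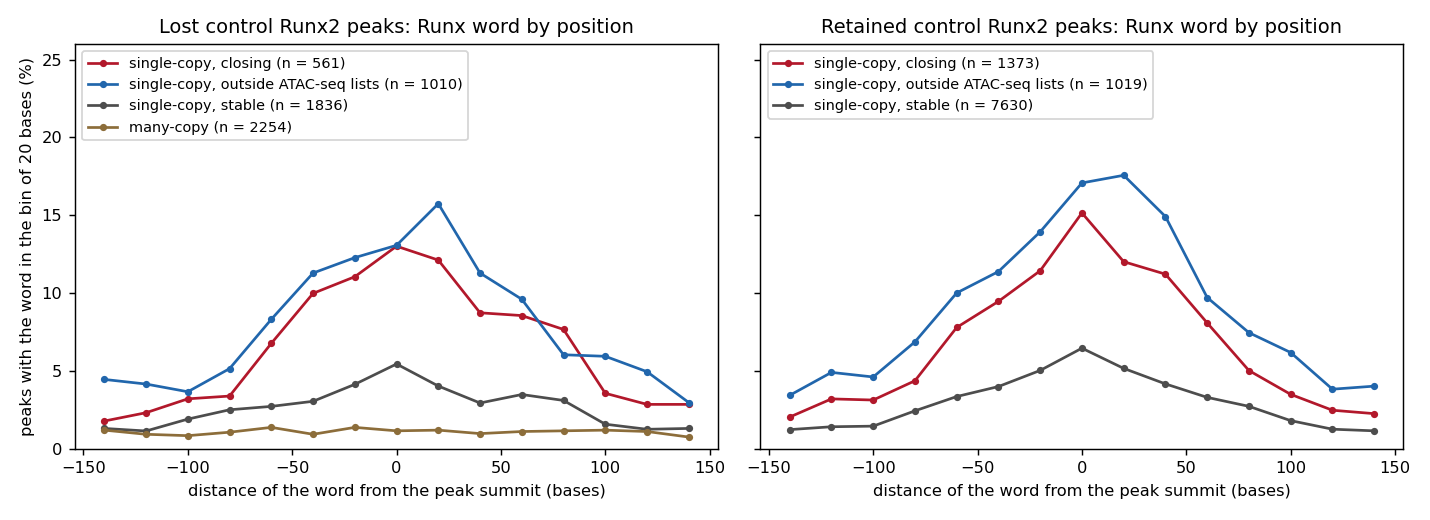
Share of peaks with TGTGGT, on either strand, in bins of 20 bases (y axes, percent) by distance from the summit (x axes, bases) for lost (left) and retained (right) control Runx2 peaks, with 1 line per class. At the summit 13.0% of lost peaks on closing regions, 13.1% of those outside ATAC-seq lists, 5.45% of those on stable regions and 1.15% of many-copy peaks held the word in the central bin.

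Some words of other factors also differed between lost and retained single-copy peaks, again in 200 bases and on both strands. GGGCGG, the core of Sp and Klf sites common in promoters, lay in 19.6% of lost and 32.7% of retained peaks. CAGGTA or CAGGTG, an E-box read by Zeb repressors, lay in 23.0% and 17.8% (difference 5.26 points, 3.71 to 6.85), and in 23.1% and 22.9% of the neighbouring windows. Over whole peaks this order turned round, with 21.8% of lost and 29.1% of retained peaks (difference -7.31 points, -8.91 to -5.67). TGCGGT, a variant of the Runx word, lay in 13.3% and 22.9%. The shares of GGGCGG and TGCGGT are not split by ATAC-seq class or promoter here, and fewer of the lost peaks lay in promoters, as given below. GGAATG, a word of Tead factors, lay in 15.8% and 15.1% (difference 0.65 points, -0.71 to 2.07), and over whole peaks in 14.4% and 21.5%. TGACTCA, the site of AP-1 factors such as Fos and Jun, lay in 11.1% of both (10.7% and 14.6% over whole peaks), but on closing regions in 15.3% of lost and 22.7% of retained peaks (difference -7.32 points, -10.9 to -3.46). On opening regions the Zeb word lay in 49.6% of 137 lost and 38.8% of 196 retained peaks. Over whole peaks it lay in 69 and 98 of them, which are nearly equal shares, so this difference too depended on the window. A match is a description of the letters in the window and shows no binding.

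By genome annotation, 18.3% of lost peaks lay within 1000 bases of a transcript start, 29.1% in introns and 51.3% between genes, and for retained peaks these shares were 49.4%, 20.4% and 28.9%. For single-copy peaks the promoter share was 31.6% against 51.4%. Chromosome X stood apart from the autosomes, with 339 of its 541 control Runx2 peaks lost (62.7%, 58.5 to 66.6) against 37.1% on the autosomes. Many-copy peaks were the larger part there, with 242 of 248 lost, and among single-copy peaks of chromosome X 55 of 238 were lost (23.1%, 18.2 to 28.9), against 25.8% on the autosomes.

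**Figure D4:**
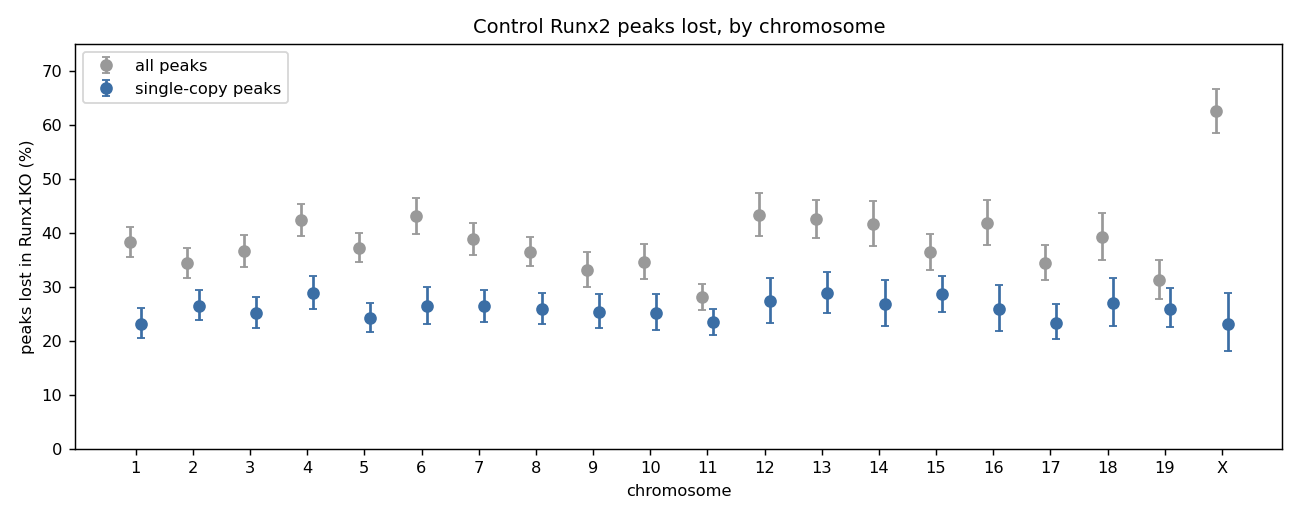
Share of control Runx2 peaks without a Runx1KO call (y axis, percent) on each chromosome (x axis), for all peaks and for single-copy peaks, with 95% Wilson intervals over peaks. Of the chromosomes drawn, X has the highest share for all peaks, at 62.7%, and the lowest for single-copy peaks, at 23.1%, next to chromosome 1, also at 23.1%.

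The 5 strongest lost peaks on placed chromosomes other than 18 were single-copy and lay at least 9460 bases from a Runx1KO peak. The highest fold was 10.5, with a pileup of 42 reads, at chrX:34718920-34719228, an intergenic peak 10237 bases from the start of Akap14. It lay on a closing region, overlapped a Runx1 peak of fold 5.55, and carried 4 Runx words. The peaks of fold 10.3 at chr6:102069990-102070403 (nearest start Cntn3, a neural adhesion molecule gene) and 10.0 at chr19:27008687-27009109 (nearest start Gm815) were also intergenic, on closing regions and with Runx1 peaks, of fold 6.71 and 9.0. Next came chrX:98703251-98703551 near Taf1 at 9.77 and chr12:73775342-73775763 near Dhrs7 at 9.29, both intergenic, on stable regions and with a Runx1 peak. A peak in an intron of Oxr1 (chr15:41677895-41678391, fold 9.04) was also among the 6 strongest on closing regions with a Runx1 peak. All 5 strongest lost peaks of this ranking overlapped a Runx1 peak, whereas 16.3% of all lost peaks did. Strong peaks often had one whether lost or not. Of 4053 single-copy peaks in the strongest of the 4 fold groups, 3121 overlapped a Runx1 peak. Of the 237 lost among these 4053, 128 did.

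Outside all ATAC-seq lists the 3 strongest lost peaks had folds of 8.14 near Drd5, 7.99 near Cartpt and 7.67 in an intron of Figf, which encodes a growth factor of lymphatic vessels. The Drd5 and Figf peaks overlapped Runx1 peaks of fold 7.08 and 7.39 and the Cartpt peak did not. All 3 are single-copy by the median of their words, although the Cartpt peak holds a run of the dinucleotide ca.

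One of the strongest lost peaks lay in Runx1 itself, and its position matters for reading it. The gene spans chr16:92601712-92826311 on the minus strand of mm9. The lost peak at chr16:92696733-92697325 had a fold of 8.80 and a pileup of 71, lay 544 bases from a transcript start, overlapped a Runx1 peak of fold 9.30 and sat on the closing region chr16:92696747-92698290. The guide sites matched chr16:92695721-92695740 and chr16:92695999-92696018, so the peak began 715 bases past the nearer of them, and whether the edit reached it in these cells was not tested. Of 6 control Runx2 peaks in the gene, 3 were lost, with folds of 8.80, 4.19 and 2.92, all on closing regions. The 3 retained ones, with folds of 7.03, 9.47 and 7.72, all overlapped a Runx1 peak and lay on stable regions or on none, and in Runx1KO cells their folds were 6.77, 5.76 and 8.55.

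RNA was then set beside the lost peaks. A gene was linked to a peak whose middle lay in its domain, 5 kb upstream to 1 kb downstream of its start, extended to the neighbouring domain or by up to 1000 kb. Genes were called at more than 2-fold and an adjusted p under 0.05 by limma on log2(TPM + 1) with Benjamini-Hochberg adjustment, so fold changes are on that scale and understate changes of genes of low TPM. In bulk RNA, fewer cells of a type and less RNA per cell cannot be told apart. Of 12358 tested genes with a position, 636 were called lower in Runx1KO cells (5.15%) and 966 higher (7.82%). The domain of 4153 of them held at least 1 lost peak, and of these 293 were called lower (7.06%) and 330 higher (7.95%). The higher share was thus near the background, and the lower share was above it. The median log2 difference was -0.05 for these genes and -0.06 for all, and their domains were longer, at a median of 171 kb against 81.9 kb.

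Domain length moved with the lower share in all genes. In 3 equal groups of genes by domain length, 2.91%, 4.32% and 8.20% of genes were called lower. With at least 1 lost single-copy peak the shares were 3.19%, 4.20% and 9.37%, and without one 2.87%, 4.36% and 7.45%. In the group with the longest domains the 95% Wilson intervals were 8.05 to 10.9 with one and 6.48 to 8.54 without. Intervals of the 2 shares overlapped in each group, but such overlap is no test of their difference, and none was made. Genes whose lost peaks were only many-copy had a lower share of 9.98% (64 of 641) with a median domain of 431 kb.

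Closing regions gave the larger shares. Among 632 genes with a lost peak on a closing region, 91 were called lower (14.4%) and 39 higher (6.17%), with a median log2 difference of -0.18. In the group with the longest domains, the lower share of such genes was 15.9% (75 of 473). Among 1344 genes with a retained peak on a closing region, 190 were called lower (14.1%). Some genes are in both sets, so these shares are not independent. Of 366 genes with a lost but no retained peak on a closing region, 37 were called lower (10.1%). Genes with retained peaks only had a lower share of 3.51% and a higher share of 5.23% (n = 4724), genes with lost peaks only 7.01% and 11.6% (n = 1326), and genes with no control Runx2 peak 5.08% and 11.2% (n = 3481). Domain length differed between these sets, with medians of 69.5, 107 and 48.7 kb in that order, and was not matched here.

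ZebDKO cells were compared with the same 3 control libraries, so the comparisons are not independent and are given side by side. Of 12284 tested genes, 7.23% were called lower and 7.31% higher. Among 4126 genes with a lost peak the shares were 8.10% and 8.05%, and among 636 with a lost peak on a closing region 10.8% and 8.49%.

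Runx genes themselves come first among named genes. Runx1 had 18.7, 15.6 and 17.9 TPM in control and 30.3, 30.1 and 28.5 TPM in Runx1KO libraries, so the groups did not overlap, but the log2 difference of 0.74 (SE 0.07) did not reach the 2-fold limit. Counting over a whole gene does not check the loss of 1 exon, so these values say nothing of the deletion. Runx2 had 6, 4.9 and 5.5 TPM in control and 3.9, 3.7 and 3.6 TPM in Runx1KO libraries, a log2 difference of -0.45 (SE 0.08, adjusted p = 0.00175 by limma with Benjamini-Hochberg adjustment, under 2-fold). The Runx2 domain held no control Runx2 peak. The study describes Runx2 as unchanged in Runx1KO cells by Western blot. Any part of the Runx2 RNA difference in the lost calls was not tested. Runx3 was at 0.3 TPM or less in every library. Cbfb had a mean of 78.2 ± 4.17 TPM in control and 73.0 ± 1.47 TPM in Runx1KO libraries (SD, n = 3 libraries each).

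Of the genes called lower, 3 had 8 lost peaks each in their domains. Gulp1, an adaptor for the engulfment of dying cells, had 63.5, 54.1 and 64.3 TPM in control and 9.9, 10.1 and 10.8 TPM in Runx1KO libraries (log2 -2.45, SE 0.07). Slc1a3, a glutamate transporter gene, had 428.2, 429.5 and 443.3 TPM against 95.8, 97.3 and 98.5 TPM (log2 -2.15, SE 0.03). Ptchd4, a patched-related gene, had 3.4, 3.1 and 2.9 TPM and was listed at 0 in all 3 Runx1KO libraries. These genes were chosen because they were called lower, so the gap between the genotypes follows from that choice. The lost peaks were of different kinds, since 7 of the 8 near Gulp1 and 4 of the 8 near Ptchd4 were many-copy, and 6 of the 8 near Slc1a3 were single-copy. The strongest lost peak of Slc1a3 had a pileup of 35 reads but a fold of 2.65, and 10 retained peaks lay in the same domain.

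Genes of kidney mesenchyme and signalling were among the rest. Osr1, a transcription factor of early kidney progenitors, had 70.9, 64.1 and 64.3 TPM in control and 0.3, 0.5 and 0.4 TPM in Runx1KO libraries (log2 -5.59, SE 0.07), with 6 lost peaks, 2 of them on closing regions, and 6 retained ones. Gas1, a surface protein of hedgehog signalling, had 72.2, 68.9 and 72.7 TPM against 12.8, 10.5 and 11.6 TPM (log2 -2.52, SE 0.07), with 5 lost peaks, of which 3 overlapped a Runx1 peak. Pik3r1, the regulatory subunit of PI3 kinase, had 22.4, 18.4 and 23.4 TPM against 5.8, 5.9 and 5.2 TPM (log2 -1.75, SE 0.09), with 4 of 5 lost peaks many-copy. These too were picked from the genes called lower, so the gap between the genotypes is no separate result.

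Ncam1, a neural cell adhesion molecule, had 17.8, 15.3 and 16.3 TPM in control and 3.7, 3.3 and 3.7 TPM in Runx1KO libraries, with 3 of its 7 lost peaks on closing regions. Ubash3b had 14, 14.3 and 14.8 TPM against 4.3, 3.6 and 4.4 TPM, and its 6 lost peaks were all single-copy. Elfn1 had 78.6, 67.8 and 76.8 TPM against 1.8, 2.3 and 2.1 TPM. These genes and Gulp1, Slc1a3, Osr1, Gas1 and Pik3r1 had adjusted p from 4.91e-09 to 4.34e-06 by limma with Benjamini-Hochberg adjustment. Pkdcc and Adgrl2 were listed at 0 in all Runx1KO libraries, from 15.4 to 16.5 TPM and from 1 to 1.3 TPM in control. Rnf144a, Palm2, Arhgap28 and Zfp36l2 completed the 15 genes, with log2 differences of -3.74, -3.10, -1.17 and -1.02. Against the same control libraries, ZebDKO libraries had 18.7, 18.9 and 17.1 TPM of Osr1, 86.9, 84.2 and 85.9 TPM of Elfn1 and 9.9, 10.8 and 9.6 TPM of Adgrl2, 3 of the 15 genes picked after their values were seen.

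Of the genes called higher, Fos, a subunit of AP-1, had 400.1, 412.7 and 421.7 TPM in control and 1467, 1549 and 1485 TPM in Runx1KO libraries (log2 1.86, SE 0.03), with 7 lost peaks, all single-copy and none on a closing region. Plet1 had 0.1 TPM in each control library and 22.3, 23.4 and 22.8 TPM in Runx1KO libraries, with 6 lost and no retained peaks in its domain. Mctp2 had 0.3, 0.4 and 0.3 TPM against 24.6, 26.6 and 25.4 TPM, with 5 lost peaks, all many-copy. Cobl, an actin nucleator, Fgf1, a growth factor, Ppm1j, Nap1l3 and Cdyl2 were the others of the 8, with log2 differences of 1.12, 1.10, 4.15, 2.29 and 2.22. Over these 8 genes the largest adjusted p was 5.83e-05 by limma with Benjamini-Hochberg adjustment. Both directions appear among the named genes because genes were picked from each. Of all genes with a lost peak, 7.06% were called lower and 7.95% higher, against 5.15% and 7.82% of all tested genes.

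**Figure D5:**
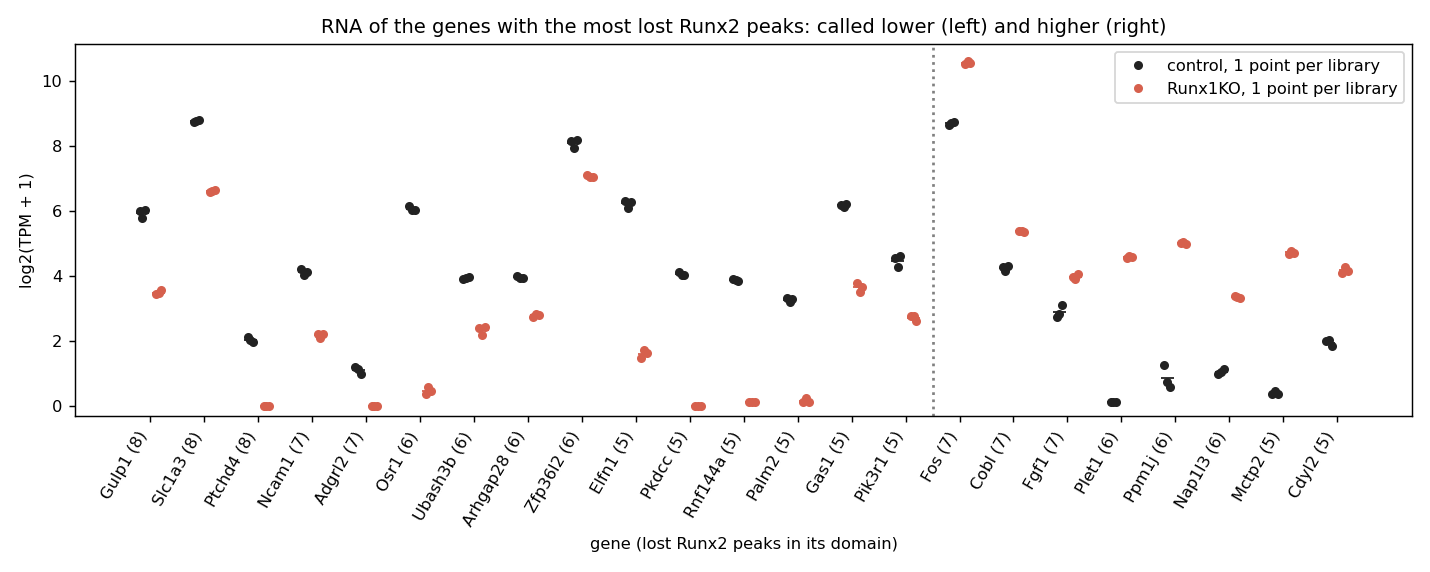
RNA level as log2(TPM + 1) (y axis) in the 3 control and 3 Runx1KO libraries for the 15 genes called lower and the 8 called higher that had the most lost Runx2 peaks in their domains (x axis, number of lost peaks in brackets), with short lines at the group means. The genes were chosen because they were called, so the separation of the 2 genotypes in every gene shown follows from that choice. Ptchd4, Adgrl2 and Pkdcc are at 0 in all Runx1KO libraries.

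Counts over gene lists were as follows, for members with at least 1 lost peak in their domain. Of 14 matrix and adhesion genes, 8 were called lower, 0 higher and 6 neither, with a median log2 difference of -1.34 against -0.06 over all genes. Over the whole list, 10 of 17 tested genes were called lower with or without a lost peak, so the count says nothing particular of the lost peaks. The 8 were Fn1, Vcan, Postn, Col3a1, Col5a2, Col6a1, Ncam1 and Igfbp5. Col6a1, a chain of collagen VI, had 324.2, 332.7 and 334.5 TPM in control and 32.4, 31.8 and 31.8 TPM in Runx1KO libraries, with 3 single-copy lost peaks. Col5a2, a chain of collagen V, had 148.8, 148.1 and 149.9 TPM against 15.3, 13.2 and 13.5 TPM, and both of its lost peaks were many-copy.

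Of 8 Wnt pathway genes, 5 were called lower (Lef1, Wnt5a, Fzd1, Fzd7 and Sfrp2), 1 higher (Tcf7) and 2 neither, with a median log2 difference of -1.38, and over the whole list 9 of 15 tested genes were lower and 1 higher. Of 12 TGF-beta and activin genes, 3 were called lower (Tgfbr3, Inhbb and Ltbp1), 1 higher (Inhba) and 8 neither, with a median of 0.14, and over the whole list 4 of 19 were lower and 1 higher. Inhbb, the activin B subunit, had 48.9, 45.6 and 45.4 TPM in control and 0.2, 0.1 and 0.1 TPM in Runx1KO libraries, with 2 of its 3 lost peaks on closing regions. Of 4 nephron progenitor genes, Osr1 and Eya1 were called lower and 2 were not called, and over the whole list 3 of 10 tested genes were lower.

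All 8 epithelial genes with a lost peak were called higher, with a median log2 difference of 3.91. They were Krt8, Krt18, Cldn4, Grhl2, Pard6b, Itgb4, Jup and Klf5, and none of their lost peaks lay on a closing region. Krt8, a simple epithelial keratin, had 1.8, 1.9 and 3.6 TPM in control and 2302, 2394 and 2362 TPM in Runx1KO libraries. Pard6b, a cell polarity gene, had 25.7, 23.4 and 24 TPM against 194, 183.2 and 197.1 TPM, with 4 lost and 2 retained peaks. Over the whole epithelial list of 13 tested genes, 12 were called higher with or without a lost peak, so the count says nothing particular of the lost peaks.

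Of 4 epithelial-mesenchymal transition factors with a lost peak, Zeb1 alone was called lower, at 15.1, 14.2 and 15.6 TPM in control and 0.1, 0.2 and 0.2 TPM in Runx1KO libraries. Its lost peak was many-copy and its 2 other peaks were retained. Over the whole list, 3 of 7 tested genes were lower. Of 6 AP-1 genes, Fos and Fosb were called higher and 4 were not called, and over the whole list 3 of 10 were higher. Runx1 and 4 genes of Runx partners (Tle2, Tle3, Tle4 and Aes) had a lost peak and none was called. A lost peak lay in the domains of 293 of the 636 genes called lower, so most genes called lower had none. Of all 12358 tested genes with a position, 4153 had a lost peak. The genes given next are examples picked by name and are not a sample of the genes called lower. Zeb2, Gdnf, Twist2, Tnc and Igfbp4 had 0 lost and 0 to 5 retained peaks, with log2 differences from -5.48 to -1.38.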

How the data were processed

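Per the authors' methods, reads were aligned to mm9 and cleared of duplicates, and ChIP-seq peaks were called with MACS2 on combined replicate reads, and peaks overlapping background peaks of the Runx1 antibody in cells without Runx1 were taken out. The deposited ChIP-seq lists give peak positions (other), a fold ratio over local background, and -log10 p-values and -log10 q-values. The peak names of each list carry the label of 1 library. The methods state broad peaks at a q limit of 0.01, while the deposited lists are narrow peaks with q-values up to 0.0494. Positions of the deposited ATAC-seq lists were used. The authors' log2 fold changes and unlabelled -log10 values in them were not used. RNA-seq was deposited as TPM made by the authors, with 1 decimal in the table of 9 libraries. A table of 6 libraries was an alternative. TPM and peak lists keep no read number, so depth is unknown and limits what a missing call shows.

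Peaks were overlapped by at least 1 base. Pileup was solved from fold and p, with a tolerance of 0.001 in -log10 p. Sequence and GENCODE gene models were mm9. Of 24953 genes, 22442 had a position. RNA was fitted with R 4.3.3 and limma 3.58.1 on log2(TPM + 1) with a variance trend, for 13067 genes that reached 1 TPM in 3 or more of 6 libraries. Peaks were analysed with Python 3.11.15, numpy 2.4.6, pandas 2.3.3, scipy 1.17.1 and pysam 0.24.0, and figures drawn with matplotlib 3.10.9. The overlap of intervals, the Wilson intervals, the solving of pileup, the counting of copies and the limma fit were tested on simulated data. Named genes were the 15 called lower and 8 called higher with the most lost peaks, called members of 8 gene lists, members shown at a locus by the study, and the Runx genes. Members and lists were chosen with earlier results of these data known. Replicate numbers did not pair the libraries, so no block was used. One named peak is not reported here.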

Additional observations from a re-analysis of the deposited data

How the results depend on the processing

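The split by sequence copies was chosen after seeing the data. With single-copy peaks only, peaks under 10 copies and peaks under 100 copies, the share lost was 25.8%, 27.3% and 28.8% instead of 38.0%. The lost minus retained difference for closing regions reversed from -4.18 to 2.39, 1.40 and 0.27 points, and that for TGTGGT from -9.92 to 5.47, 3.71 and 1.89 points. The difference for peaks outside all ATAC-seq lists was 18.5, 22.6 and 26.6 points instead of 46.3, and for Runx1 peaks -33.8, -33.6 and -33.0 instead of -30.4. On autosomes only, 37.1% were lost.

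With lost peaks defined as under 50% covered, the share lost was 43.7% and the differences were -31.9 points for Runx1 and 40.5 points outside ATAC-seq lists. With no Runx1KO peak within 500 bp they were 34.7%, -27.4 and 50.5, and -8.34 for TGTGGT. At a q-value of at most 0.01 the share lost was 36.4%. With fold at or above the median it was 19.8%, with -33.2 points for Runx1, -0.42 for closing regions and -5.07 for TGTGGT. Requiring 50% cover by Runx1 gave -18.7, TGTGGT in the whole peak -18.8, and TGTGGTT -6.29. The causes were not tested, beyond the smaller set of peaks that each choice leaves.

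With a 1.3-fold limit, 4857 genes were called in Runx1KO cells (2413 higher, 2444 lower) and 6746 in ZebDKO cells (2244 higher, 4502 lower), and 881 lower and 786 higher genes had a lost peak. A filter of 5 TPM left 442 genes lower in Runx1KO cells. Linking peaks to the nearest start within 100 kb gave 167 lower and 204 higher genes with a lost peak, and starts within 20 kb gave 113 and 199. In the last, 4.41% of linked genes were lower, under the 5.15% of all genes. Leaving out 1 library gave 288 to 297 lower and 324 to 337 higher genes with a lost peak.

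Same-numbered libraries of control and the other genotypes did not deviate together (correlations from -0.0495 to 0.0399). With the replicate number as a block, 1708 genes were called in Runx1KO cells (1039 higher, 669 lower) and 1920 in ZebDKO cells, with 294 lower and 330 higher genes with a lost peak. Among 60 named genes no direction reversed. Zfp36l2, Fgf1, Inhba, Tcf7 and Klf5 fell under the 2-fold limit in some settings.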

Other observations

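All 4 control Runx2 peaks on chromosome Y and 35 of 37 on its unplaced sequence were lost. The Y-linked genes Ddx3y, Eif2s3y, Kdm5d and Uty were listed at 0 TPM in all 9 RNA-seq libraries.

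The Runx1KO Runx2 list held 4800 peaks with no control Runx2 peak, set against 6688 lost in the other direction.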
